A study of Mus musculus with 12 samples.

Results

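GSCLC_1 is a mouse line of germline stem cell-like cells (GSCLCs), and its 2 libraries were compared with the 6 libraries of the other GSCLC lines, GSCLC_2, GSCLC_3 and GSCLC_4. The libraries were chosen by the line named in their labels, 2 of 12 in the series, and no measured value was used. GSCLC_1 and GSCLC_4 were established from reconstituted testes held at 34°C for 3 weeks. For GSCLC_2 and GSCLC_3 the reconstituted testes were held at 37°C for 2 weeks, followed by 1 week at 34°C. GSC_1 and GSC_2 are germline stem cell lines from separate testes of postnatal day 7, and their 4 libraries serve here as a reference only. All 6 lines share the AcrAct_EGFP reporter genotype, the C57BL/6 x 129/SvJcl background and a medium with GDNF, bFGF, LIF and EGF. Each line has 2 libraries from replicate cultures. GSCLC_1 is a single line, so effects of its source testis and of the line itself cannot be told apart.

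Spermatogonial stem cells sustain sperm production, and GDNF, acting through the receptors Gfra1 and Ret, and FGF keep them renewing in culture. Germline stem cells are the cultured form of these cells, and GSCLCs are cells of that kind derived from pluripotent stem cells. Lines of cultured stem cells are known to diverge from one another in expression, and parts of chromosomes can be gained or lost in long culture.

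RNA was read at the 3′ ends of transcripts (SC3-seq) and given as RPM, reads scaled to a common library total. The RPM steps implied 3031681 to 4644250 reads per library, and 3504837 and 4230297 for GSCLC_1. A floor of 3 reads was 0.646 to 0.99 RPM and covers counting error only. Of 26219 genes, 11453 had at least 5 RPM in at least 2 of the 8 GSCLC libraries and were tested. Differences are in log2(RPM + 1) with SE, which understates the change of low genes, and levels are RPM ± SD over 2 cultures of GSCLC_1 or 3 means of the other lines. A gene was called when its Benjamini-Hochberg adjusted p in limma was under 0.05. The error in these tests is that between the 2 cultures of each line, so a p-value says nothing of lines not sampled.

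None of the germ cell genes fixed for naming, Sox2 aside, was called against the mean of the other 3 lines, although some germ cell genes differed from single lines. Calls were rare over all tested genes too, at 0.166% higher and 0.14% lower. Dazl, a germ cell regulator of translation, stood at 1359 and 1443 RPM in GSCLC_1, 1429 and 1324 in GSCLC_2, 1452 and 1312 in GSCLC_3, and 1559 and 1513 in GSCLC_4. The groups overlapped, with a difference of -0.03 ± 0.08 (adjusted p = 0.947). Gfra1, the GDNF receptor, stood at 284 and 307 RPM against 203 to 396 RPM (-0.06 ± 0.15, adjusted p = 0.931), and 20.3% of its 3′ end lies opposite an antisense transcript. Ddx4, Ret, Etv5, Zbtb16, Id4, Nanos2, Nanos3, Kit, Stra8, Dnmt3b and Pou5f1, all regulators or markers of germ cells, were not called either. The 9 germ cell markers summed to 3317 to 3336 RPM in GSCLC_1, 2932 to 3640 RPM in the other 6 libraries and 3050.1 to 3558 RPM in the GSC libraries.

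The summed markers of other cell types lay within the range of the other lines for all but 2 of the lists. The 12 Sertoli cell markers summed to 55.9 to 71.2 RPM against 38.0 to 156 RPM, with Cst12, Amh and Fshr at 0. The 16 fibroblast markers summed to 524 to 631 RPM against 472 to 793 RPM, with none at 0. The 10 macrophage and endothelium markers summed to 11.1 to 14.4 RPM against 12.9 to 24.6 RPM, with Tie1, Cdh5 and Csf1r at 0. The 10 Leydig and peritubular markers summed to 17.98 and 58.2 RPM against 18.8 to 27.4 RPM, with Hsd3b1, Cyp11a1, Lhcgr and Cyp17a1 at 0. The higher value belonged to replicate 2 of GSCLC_1, where the smooth muscle actin gene Acta2 stood at 44.7 RPM against 11.4 RPM in replicate 1. The 8 pluripotency markers summed to 134 to 161 RPM against 53.4 to 163 RPM, with Nanog and Lefty1 at 0. Sox2 alone gave 118 of 161 RPM in replicate 1 of GSCLC_1 and 92.2 of 134 RPM in replicate 2. The 8 spermatocyte and spermatid markers summed to 235 to 244 RPM against 153 to 273 RPM, with Acrv1, Acr, Prm1 and Prm2 at 0. The part of these cells in the results below was not tested.

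Few genes set GSCLC_1 apart. Against the mean of the other 3 lines, 19 genes were higher (0.166% of those tested) and 16 were lower (0.14%), and 18 of these 35 differed by over 2-fold. The same contrast called 183 genes for GSCLC_2 (1.6%), 859 for GSCLC_3 (7.5%) and 685 for GSCLC_4 (5.98%). These contrasts share libraries, so the counts are given side by side. The median size of the difference was 0.16 for GSCLC_1, 0.18 for GSCLC_2 and 0.24 for both GSCLC_3 and GSCLC_4. GSCLC_1 also had the lowest mean distance to the other GSCLC lines, 46.4 against 48.8, 54.6 and 53.3 for GSCLC_2 to GSCLC_4. These are Euclidean distances of log2 values over the tested genes, and with 4 lines the smallest exact permutation p is 0.25. Its mean distance to the GSC lines was 52.95, against 58.4, 60.9 and 62.9. The values were not centred per library in these measures. The median difference of a line from the other 3 over all tested genes was 0.004 for GSCLC_1 and 0.0004 for GSCLC_2. For GSCLC_3 it was -0.09 and for GSCLC_4 0.11. The part of this offset in the counts, sizes and distances was not tested.

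**Figure D1:**
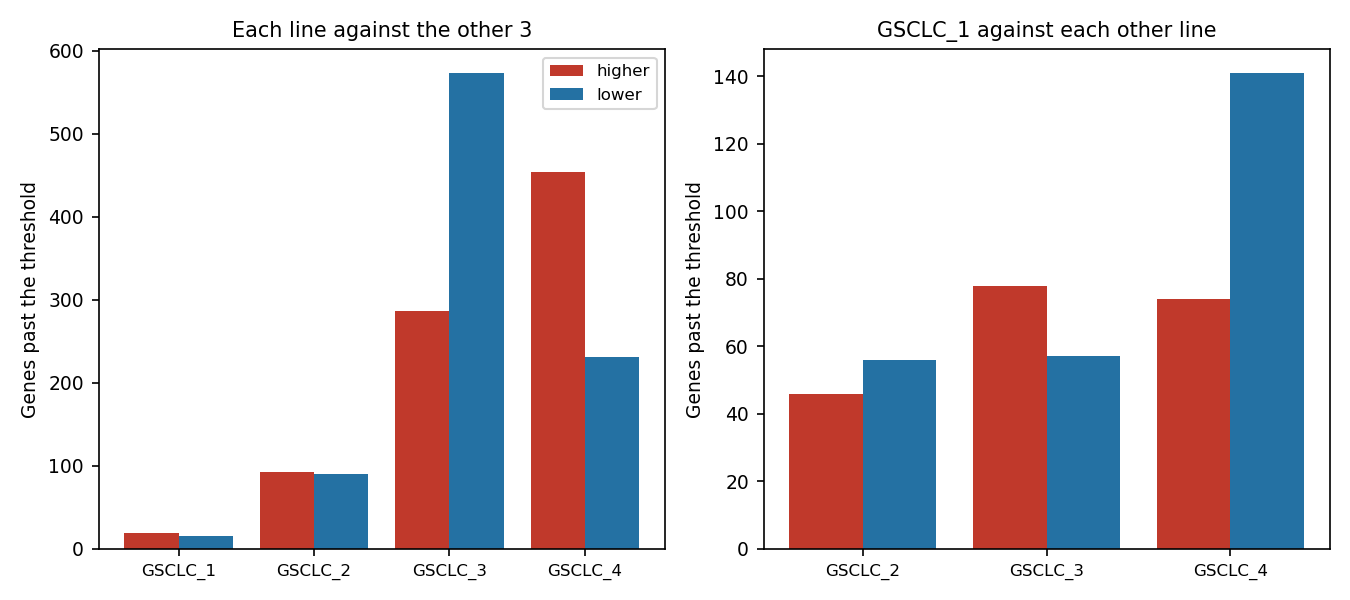
Genes past the threshold (adjusted p under 0.05 in limma, vertical axes in genes), with bars for genes higher (red) and lower (blue), for each line against the other 3 (left) and for GSCLC_1 against each other line (right). The bars of GSCLC_1 on the left are 19 and 16 genes, against 93 and 90 or more for the other lines.

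The count moved with single libraries. Without replicate 1 of GSCLC_1, 1 gene was called, and 0 of the 35 remained. Without replicate 2 the count was 5, and without replicate 1 or 2 of GSCLC_2 it was 5 or 6. It was 27 without replicate 1 of GSCLC_3 (10 lower), 51 without replicate 1 of GSCLC_4 (29 higher) and 88 without replicate 2 of GSCLC_4. Without the line GSCLC_2 18 genes were called, and without GSCLC_3 the count was 217. With the line as the unit, 1 line against 3, the count in limma was 0 (0%). There, 125 genes had an unadjusted p under 0.05, and the smallest adjusted p was 0.99999. Without GSCLC_3 that test called 57 genes, without GSCLC_2 it called 3, and without replicate 2 of GSCLC_1 it called 1.

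Most of the 35 genes were called against the same pair of lines. Of the 35, 22 were called against GSCLC_2 and GSCLC_4 but not against GSCLC_3, which does not show that GSCLC_1 and GSCLC_3 were alike. Called against exactly 1 line were 7 genes, against 2 lines 27 and against all 3 lines 1. This last gene, Ifi27l1, was the single gene of all tested that passed against each other line in 1 direction (0.00873%). In 22 of the 35 both GSCLC_1 libraries lay outside the range of the other 6, 12 above and 10 below. Over all tested genes, 4.67% lay above that range and 3.33% below. The calls and these ranges use the same libraries, so the higher share among called genes is no separate support.

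**Figure D2:**
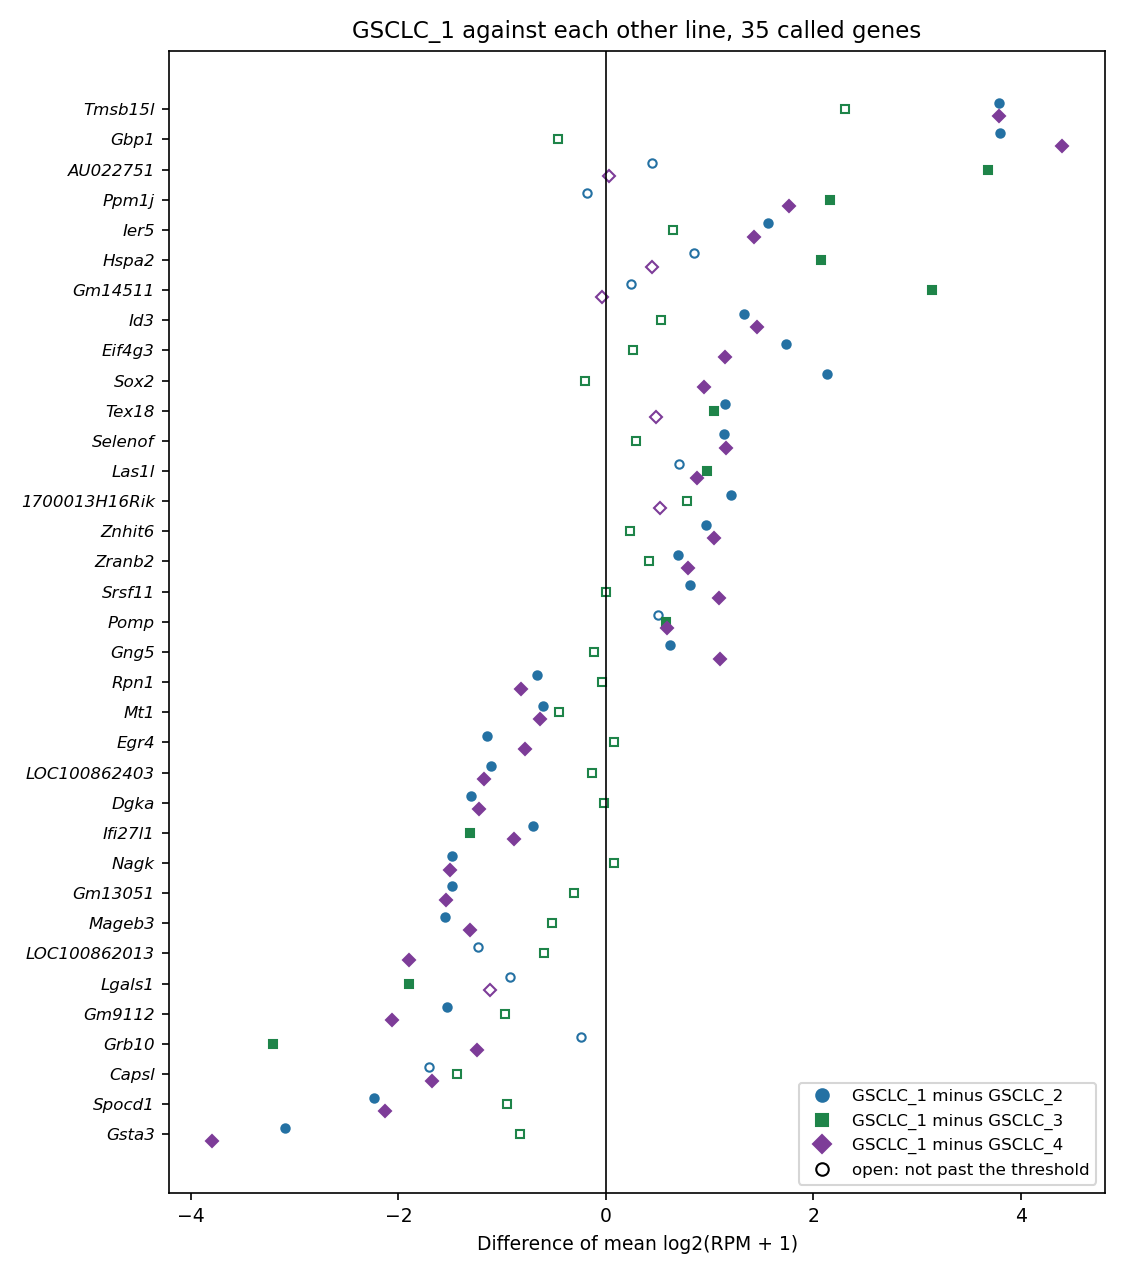
Difference of mean log2(RPM + 1) between GSCLC_1 and GSCLC_2 (circles), GSCLC_3 (squares) and GSCLC_4 (diamonds) for the 35 called genes, 1 per row, with filled symbols for an adjusted p under 0.05 in limma. In 22 rows the circle and the diamond are filled and the square is open.

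Ifi27l1, a gene of the family induced by interferon alpha, was lower in GSCLC_1 than in every other GSCLC library. It stood at 84.2 and 96.9 RPM in GSCLC_1, 152 and 144 in GSCLC_2, 229 and 223 in GSCLC_3, and 154 and 181 in GSCLC_4. The GSC libraries held 56.0 to 76.3 RPM, so GSCLC_1 lay between them and the other GSCLC lines. The difference from the other lines was -0.97 ± 0.12 (adjusted p = 0.00386), and it was -0.71 ± 0.14, -1.31 ± 0.14 and -0.88 ± 0.14 against GSCLC_2, GSCLC_3 and GSCLC_4 (adjusted p = 0.0338, 0.000241 and 0.00793). It was called in 18 of 21 alternative settings. No gene passed against all 3 lines without replicate 1 of GSCLC_1 or either library of GSCLC_2, and 2 genes did without replicate 2 of GSCLC_1, replicate 1 of GSCLC_3 or replicate 1 of GSCLC_4. On GRCm38, Ifi27l1 (identifier 52668) lies on chromosome 12 at 103434189 to 103440245.

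Gsta3, a glutathione transferase of detoxification, had the largest fall among the called genes. It stood at 0.856 and 1.42 RPM in GSCLC_1 and 2.83 and 2.70 in GSCLC_3. GSCLC_2 held 21.1 and 13.8 RPM, GSCLC_4 held 29.6 and 27.4 RPM, and the GSC libraries 8.42 to 12.4 RPM. Both GSCLC_1 libraries lay below all others, near the floor of 3 reads, and GSCLC_3 was the next lowest. The difference was -2.57 ± 0.30 (adjusted p = 0.00386), called in 19 of 21 settings. Gbp1, a guanylate-binding GTPase induced by interferon, had the reverse order, at 24.0 and 16.8 RPM in GSCLC_1 and 19.8 and 39.6 in GSCLC_3. It was listed at 0 and 1.304 RPM in GSCLC_2 and at 0 in both GSCLC_4 libraries, while the GSC libraries held 22.2 to 29.1 RPM. GSCLC_1 and GSCLC_3 overlapped, so Gbp1 (2.58 ± 0.41, adjusted p = 0.0241) does not mark GSCLC_1 alone, and its difference depends on the pseudocount because of the values at 0.

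The promoters of these 2 genes, from 250 bases before to 50 after the start (RefSeq, GRCm38.p6), are shown because both genes were near 0 in a pair of lines and both promoters hold few CG dinucleotides, which are in capitals. Gbp1 is at chr3:142594597-142594896 and Gsta3 at chr1:21240335-21240634, both on the plus strand.
Gbp1: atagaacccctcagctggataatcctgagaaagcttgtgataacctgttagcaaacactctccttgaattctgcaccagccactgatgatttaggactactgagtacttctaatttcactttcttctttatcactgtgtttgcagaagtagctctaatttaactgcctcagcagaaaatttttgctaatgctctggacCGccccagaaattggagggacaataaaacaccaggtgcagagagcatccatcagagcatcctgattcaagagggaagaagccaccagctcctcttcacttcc
Gsta3: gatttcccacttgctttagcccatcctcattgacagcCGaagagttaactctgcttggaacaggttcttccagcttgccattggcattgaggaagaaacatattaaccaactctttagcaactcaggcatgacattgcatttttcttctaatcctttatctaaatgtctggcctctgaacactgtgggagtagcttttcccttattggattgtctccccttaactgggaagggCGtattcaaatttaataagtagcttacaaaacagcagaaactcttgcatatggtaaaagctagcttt
Gbp1 held 1 CG and Gsta3 held 2. The median was 19 over the 29 called genes with a promoter in the table, of 35, and 22 over 8921 tested genes. The called genes ran from 1 to 52, and others had few as well, such as Gm13051 with 3 and Dgka with 4. Both promoters were picked for few CG, so their distance from the medians follows from the choice.

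Other genes called against GSCLC_2 and GSCLC_4 but not GSCLC_3 were lower in GSCLC_1. Spocd1, which acts in piRNA-directed DNA methylation, stood at 2.00 and 2.60 RPM in GSCLC_1, 17.8 and 11.7 in GSCLC_2, 5.09 and 5.66 in GSCLC_3, and 15.5 and 11.5 in GSCLC_4. Both GSCLC_1 libraries were the lowest of all 12 (-1.77 ± 0.30, adjusted p = 0.0279), and the GSC libraries held 9.45 to 15.7 RPM. It was the only called gene among 23 tested of the piRNA pathway list, beside 19 higher and 16 lower among all 11453 tested genes. Dgka, a diacylglycerol kinase, stood at 22.5 and 21.5 RPM in GSCLC_1 and 20.9 and 23.7 in GSCLC_3, against 52.6 to 55.9 RPM in GSCLC_2 and GSCLC_4 and 40.3 to 54.1 RPM in GSC. GSCLC_1 and GSCLC_3 overlapped (-0.85 ± 0.16, adjusted p = 0.0394), and 12.9% of the 3′ end of Dgka is shared with antisense transcripts. Mageb3, of the MAGE family, stood at 14.8 and 17.3 RPM against 18.9 to 52.9 RPM (-1.13 ± 0.20, adjusted p = 0.0309). Gm13051 stood at 9.70 and 9.69 RPM against 12.1 to 32.8 RPM (-1.11 ± 0.20). Both levels are uncertain, because 61.4% of the 3′ end of Mageb3 and 75.7% of that of Gm13051 also occur in other transcripts, as does 15.5% of that of Gm9112. Gm9112 stood at 9.99 and 8.75 RPM against 14.4 to 53.6 RPM (-1.52 ± 0.24, adjusted p = 0.0241). The predicted gene LOC100862403 was lower as well, at -0.81 ± 0.15. LOC100862013 (-1.24 ± 0.23) was called against GSCLC_4 but not against GSCLC_2 (adjusted p = 0.0603). No reference transcript matched either of these.

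Id3, Ier5, Sox2 and Eif4g3, called against the same 2 lines, were higher in GSCLC_1. Id3, an inhibitor of bHLH factors, stood at 91.3 and 97.9 RPM in GSCLC_1, 40.6 and 33.7 in GSCLC_2, 86.8 and 48.8 in GSCLC_3, and 35.3 and 32.3 in GSCLC_4. The groups did not overlap (1.11 ± 0.19, adjusted p = 0.0309), but replicate 1 of GSCLC_3 came close, and the GSC libraries held 42.1 to 75.4 RPM. Ier5, an immediate early gene, stood at 40.2 and 43.7 RPM in GSCLC_1, 34.2 and 20.5 in GSCLC_3, and 13.3 to 15.5 RPM in GSCLC_2 and GSCLC_4 (1.21 ± 0.22, adjusted p = 0.0309). In both genes the same library of GSCLC_3 was the higher of its pair. Sox2, a pluripotency factor, stood at 118 and 92.2 RPM in GSCLC_1, 22.3 and 23.7 in GSCLC_2, 113 and 128 in GSCLC_3, 57.6 and 50.1 in GSCLC_4, and 30.3 to 37.9 RPM in GSC. GSCLC_1 and GSCLC_3 overlapped at levels above all other lines (0.96 ± 0.15, adjusted p = 0.0241). Against GSCLC_2 the difference of Sox2 was 2.13 ± 0.18 (adjusted p = 8.27e-05). Eif4g3, a scaffold of translation initiation, stood at 101 and 122 RPM in GSCLC_1, 87.9 and 97.8 in GSCLC_3, and 26.6 to 53.8 RPM in GSCLC_2 and GSCLC_4 (1.05 ± 0.17, adjusted p = 0.0241). Without the line GSCLC_2, Id3, Ier5, Sox2, Eif4g3 and Spocd1 were no longer called.

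Las1l, Pomp, Capsl, Tex18 and 1700013H16Rik were not called against both lines of that pair. Las1l and Pomp were called against GSCLC_3 and GSCLC_4, and Tex18 against GSCLC_2 and GSCLC_3. Capsl was called against GSCLC_4 alone and 1700013H16Rik against GSCLC_2 alone. Las1l, needed for maturation of the large ribosomal subunit, stood at 102 and 109 RPM in GSCLC_1 against 49.5 to 68.9 RPM in the other lines and 41.1 to 56.7 RPM in GSC. The other 3 lines lay close together, below GSCLC_1 (0.85 ± 0.15, adjusted p = 0.0309), although the difference from GSCLC_2 was not called (0.70 ± 0.18, adjusted p = 0.0928). Pomp, the proteasome maturation factor, stood at 428 and 484 RPM in GSCLC_1 against 280.1 to 338 RPM, and at 478 to 555 RPM in GSC (0.56 ± 0.10, adjusted p = 0.0394). Here the other lines lay below all GSC libraries, while replicate 1 of GSCLC_1 lay below them by less and replicate 2 within their range. No test against GSC was run. Capsl stood at 2.57 and 2.60 RPM against 6.47 to 13.3 RPM in the other lines and 8.12 to 15.6 RPM in GSC (-1.61 ± 0.31, adjusted p = 0.0432), called in 9 of 21 settings. Tex18 stood at 131 and 143 RPM against 57.4 to 114 RPM (0.89 ± 0.15), with no reference transcript matched, and 1700013H16Rik at 79.0 and 94.6 RPM against 34.4 to 64.1 RPM (0.83 ± 0.15).

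Lgals1, the galectin-1 gene, was lower in every GSCLC line than in GSC and lowest in GSCLC_1. It stood at 53.1 and 118 RPM in GSCLC_1, 125 and 183 in GSCLC_2, 314 and 284 in GSCLC_3, 201 and 150.4 in GSCLC_4, and 343 to 435 RPM in GSC. The 2 GSCLC_1 cultures differed by more than 2-fold, and the higher of them lay just under GSCLC_2. The difference was -1.31 ± 0.23 (adjusted p = 0.0309), called in 14 of 21 settings and lost without the line GSCLC_3. Of the 3 lines, Lgals1 was called against GSCLC_3 alone (-1.90 ± 0.28, adjusted p = 0.00419). It was not called against GSCLC_2 (-0.92 ± 0.28, adjusted p = 0.166) or GSCLC_4 (-1.12 ± 0.28, adjusted p = 0.0549).

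Mt1, a metallothionein that binds zinc and is induced by metals, was the most abundant of the called genes that fell with no overlap. It stood at 481 and 434 RPM in GSCLC_1, 645 and 747 in GSCLC_2, 664 and 588 in GSCLC_3, 796 and 632 in GSCLC_4, and 681 to 1013 RPM in GSC (-0.56 ± 0.11, adjusted p = 0.0432). GSCLC_1 was the lowest of all lines, but Mt1 was called in 11 of 20 settings. The call was lost under median centring, with no filter, with no variance trend, without either library of GSCLC_1 or of GSCLC_2, without replicate 1 of GSCLC_3 and without the line GSCLC_2. Its neighbour Mt2, named after its values were seen, stood at 903 and 746 RPM in GSCLC_1 against 889.8 to 1472 RPM, with a difference of the same size (-0.56 ± 0.16) that was not called (adjusted p = 0.181). Both promoters (RefSeq, GRCm38.p6, 250 bases before to 50 after the start, plus strand) are shown because the pair shares a known response to metals. Mt1 is at chr8:94178839-94179138 and Mt2 at chr8:94172368-94172667. Capitals mark the core of the metal response element, TGCACNC or TGCGCNC, read on both strands.
Mt1: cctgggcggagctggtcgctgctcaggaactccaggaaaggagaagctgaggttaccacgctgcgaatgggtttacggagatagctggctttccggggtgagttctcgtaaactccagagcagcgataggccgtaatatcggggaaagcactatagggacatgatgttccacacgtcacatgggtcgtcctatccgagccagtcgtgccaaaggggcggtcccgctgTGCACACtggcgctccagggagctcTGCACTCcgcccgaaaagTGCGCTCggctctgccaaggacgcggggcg
Mt2: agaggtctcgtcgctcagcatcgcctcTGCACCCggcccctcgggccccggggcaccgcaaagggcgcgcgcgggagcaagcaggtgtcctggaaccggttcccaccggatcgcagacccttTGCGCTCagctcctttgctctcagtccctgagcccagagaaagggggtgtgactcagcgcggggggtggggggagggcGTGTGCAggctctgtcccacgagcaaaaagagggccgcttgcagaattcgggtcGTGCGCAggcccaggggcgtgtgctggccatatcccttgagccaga
Mt1 held 3 cores and Mt2 held 4. At least 1 core was found in 38.4% of 8921 promoters of tested genes and at least 4 in 1.01%. These matches describe the letters only.

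Some genes stood far from GSCLC_1 in GSCLC_3, alone or with another line. Grb10, an imprinted adaptor of growth factor receptors, stood at 9.99 and 18.4 RPM in GSCLC_1, 15.3 and 17.2 in GSCLC_2, 138 and 131 in GSCLC_3, 31.8 and 35.6 in GSCLC_4, and 9.60 to 12.1 RPM in GSC. GSCLC_1 and GSCLC_2 overlapped, and the call (-1.56 ± 0.21, adjusted p = 0.00574) was lost without the line GSCLC_3. Grb10 was called against GSCLC_3 (-3.21 ± 0.25, adjusted p = 7.63e-06) and GSCLC_4 (-1.25 ± 0.25, adjusted p = 0.0256). Hspa2, AU022751 and Gm14511 were, like Lgals1, called against GSCLC_3 alone of the 3 lines, and Ppm1j against GSCLC_3 and GSCLC_4. Hspa2, the Hsp70 protein of meiotic germ cells, stood at 37.7 and 30.5 RPM in GSCLC_1 and 7.07 and 7.55 in GSCLC_3, with 18.1 to 27.7 RPM in the other 2 lines (1.12 ± 0.21, adjusted p = 0.0382). AU022751 stood at 42.5 and 40.4 RPM in GSCLC_1 and 3.68 and 1.35 in GSCLC_3, and Gm14511 at 39.4 and 39.7 RPM and at 3.39 and 3.77 RPM in the same libraries. In GSCLC_2 and GSCLC_4 both genes lay between 29.3 and 46.3 RPM, around the level of GSCLC_1. Of the 3′ end of Gm14511, 48.2% also occurs in genes of the Fthl17 family, so its level is uncertain. Ppm1j, a protein phosphatase, stood at 42.8 and 56.3 RPM in GSCLC_1 and 54.9 and 57.1 in GSCLC_2, against 8.36 to 18.8 RPM in GSCLC_3 and GSCLC_4 (1.24 ± 0.24, adjusted p = 0.0407). Unlike these genes, Tmsb15l, a beta thymosin, was called against GSCLC_2 and GSCLC_4 but not against GSCLC_3 (2.31 ± 0.79, adjusted p = 0.207). It stood at 16.0 and 10.2 RPM in GSCLC_1 and at 6.81 RPM in replicate 1 of GSCLC_3, with the other 5 GSCLC libraries at or below 0.00927 RPM. The reference lines were split as well, with 11.2 and 10.8 RPM in GSC_1 and 0.00376 and 0.0147 RPM in GSC_2. Such fractions are below the value of 1 read, and the difference of 3.29 ± 0.64 (adjusted p = 0.0432) was called in 10 of 21 settings. Tmsb15l passed the filter of 5 RPM through the GSCLC_1 libraries, where it is high, so its call is weak support. The similarly named Tmsb15b2 stood at 0.0069 RPM in replicate 1 of GSCLC_1 and 21.0 RPM in replicate 2. In the other GSCLC lines Tmsb15b2 stood at 13.8 to 39.3 RPM. How reads were divided between these genes was not tested, so the level of Tmsb15l is uncertain.

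**Figure D3:**
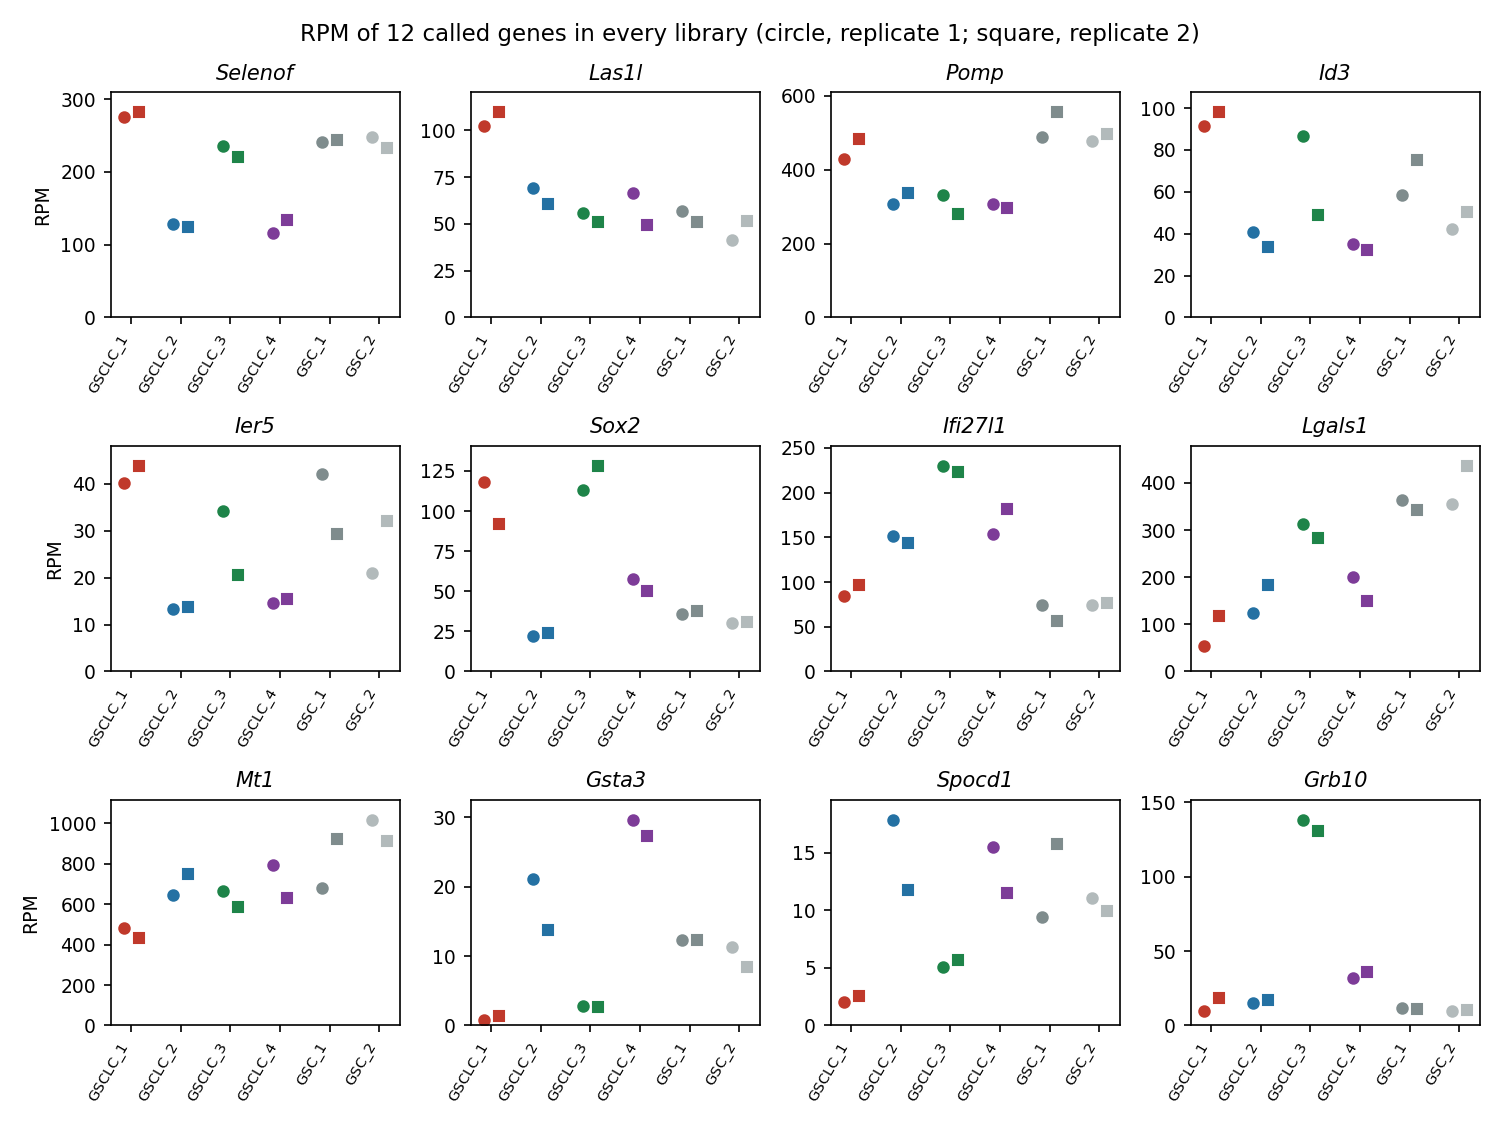
RPM (vertical axes, from 0) of 12 called genes in the 8 GSCLC and 4 GSC libraries (horizontal axes, by line), with circles for replicate 1 and squares for replicate 2. Both GSCLC_1 points lie above all other GSCLC points for Selenof, Las1l, Pomp, Id3 and Ier5 and below them for Ifi27l1, Lgals1, Mt1, Gsta3 and Spocd1, while those of Sox2 overlap GSCLC_3 and those of Grb10 overlap GSCLC_2.

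Few members of the gene lists were called in GSCLC_1, and list medians are set beside a median of 0.004 over all tested genes. Of all 11453 tested genes, 19 were called higher (0.166%) and 16 lower (0.14%). With shares this low, a count of 0 or 1 in a list says little about that list. Of the stem cell self-renewal list 0 of 36 tested members were called (median -0.03), of the spermatogonial differentiation list 0 of 17 (0.06), of the germ cell core list 0 of 27 (-0.07) and of the meiotic prophase list 0 of 25 (0.09). At an unadjusted p under 0.05 the counts were 5, 5, 4 and 3, and 1220 of 11453 over all tested genes. By the same unadjusted measure the pluripotency list had 6 of 17, the oxidative stress list 6 of 21 and other developmental transcription factors 9 of 35. Whether these shares differ from that over all tested genes was not tested. The pluripotency list had 1 of 17 higher, Sox2, and the immediate early list 1 of 19, Ier5. Of the oxidative stress list 1 of 21 was lower, Mt1, and of the heat shock list 1 of 19 was higher, Hspa2. The maternally expressed imprinted list had 1 of 13 lower, Grb10. No member was called among 16 genes of DNA methylation, 31 of Polycomb, 8 of Hoxb, 4 of Hoxa, 21 of glycolysis, 24 of G2 and mitosis or 14 of the interferon response, of which 1, 3, 1, 0, 3, 4 and 3 had an unadjusted p under 0.05. Pou5f1, the pluripotency factor that is higher in GSC (15.9 to 35.5 RPM), stood at 8.56 and 6.15 RPM in GSCLC_1 and 0.565 to 7.92 RPM in the other lines (1.15 ± 0.40, adjusted p = 0.302).

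GSCLC_4 came from the same condition as GSCLC_1, and the main fit called the most genes against it. That order did not hold in all settings. With no filter on low values, or with no variance trend, the fewest genes were called against GSCLC_4. The order also changed with some single libraries left out, as the counts below show. In the main fit, 74 genes were higher in GSCLC_1 than in GSCLC_4 (0.646%) and 141 lower (1.23%). Against GSCLC_2, 46 were higher (0.402%) and 56 lower (0.489%). Against GSCLC_3, 78 were higher (0.681%) and 57 lower (0.498%). The 3 comparisons share the GSCLC_1 libraries, and the difference between the counts was not tested. The direction of the counts depends on the scaling: with each library centred on its median, 142 were higher and 95 lower than in GSCLC_4, and 67 higher and 93 lower than in GSCLC_3. With quantile normalisation the counts against GSCLC_3 were 45 and 54. Without replicate 1 of GSCLC_1 the counts higher and lower were 4 and 3 against GSCLC_2, 9 and 2 against GSCLC_3, and 5 and 4 against GSCLC_4. Without replicate 2 of GSCLC_1 they were 9 and 10, 14 and 5, and 14 and 22. With 1 or the other library of GSCLC_2 left out the counts were 7 and 3 against GSCLC_2, 43 to 46 and 36 against GSCLC_3, and 40 and 74 against GSCLC_4. Without replicate 1 or 2 of GSCLC_3 they were 51 and 21 or 35 and 11 against GSCLC_3. Without replicate 1 or 2 of GSCLC_4 the counts against GSCLC_2 rose to 73 and 88 or 72 and 90, and those lower than in GSCLC_3 to 100 or 101. Without replicate 1 of GSCLC_4 the counts against GSCLC_4 were 34 and 31, and without replicate 2 of GSCLC_4 the count higher was 247.

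Rhox5, Otx1, Erbb3 and Phlda2 were among the genes with the largest fall against GSCLC_4. These and the genes of the next paragraph were chosen after their values were seen, some by size and others, such as Piwil2, Tdrd5, Sohlh1, Mael and Stra8, as germ cell genes. Rhox5, an X-linked homeobox gene, stood at 3.42 and 2.84 RPM in GSCLC_1, 1.504 to 2.61 RPM in GSCLC_2 and GSCLC_3, 69.4 and 68.3 in GSCLC_4 and 0.978 to 3.83 RPM in GSC (-4.08 ± 0.38 against GSCLC_4, adjusted p = 0.000169). Otx1, a homeobox gene of the forebrain, stood at 2.00 and 1.65 RPM in GSCLC_1 and 20.0 and 20.4 in GSCLC_4 (-2.91 ± 0.47, adjusted p = 0.00779), with 4.96 to 12.8 RPM in GSCLC_2. Erbb3, a receptor of neuregulins, stood at 2.85 and 7.09 RPM in GSCLC_1, 34.1 and 34.6 in GSCLC_4 and 19.4 to 38.5 RPM in GSC, so here GSCLC_4 was at the level of GSC (-2.66 ± 0.37, adjusted p = 0.00393). Phlda2, an imprinted gene of placental growth, stood at 10.8 and 14.2 RPM in GSCLC_1, 44.1 and 47.2 in GSCLC_4 and 37.1 and 32.1 in GSCLC_2, where it was called too (-1.40 ± 0.27, adjusted p = 0.0247); against GSCLC_4 the difference was larger (-1.80 ± 0.27, adjusted p = 0.00509). The piRNA genes Piwil2 and Tdrd5 were lower than in GSCLC_4, at -0.73 ± 0.14 (adjusted p = 0.022) and -0.77 ± 0.18 (adjusted p = 0.0403).

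Against GSCLC_2, Epas1, a hypoxia-inducible factor, was lower, at 23.1 and 8.51 RPM in GSCLC_1 and 135 and 123 in GSCLC_2 (-3.10 ± 0.33, adjusted p = 0.000636). Sohlh1, a factor of spermatogonial differentiation, was higher, at 17.1 and 17.0 RPM against 1.25 and 4.17 RPM (2.40 ± 0.51, adjusted p = 0.037). Mael and Tex19.1, both germ cell genes of transposon control, were higher by 0.96 ± 0.12 and 1.59 ± 0.21 (adjusted p = 0.00188 for both). Pycard, the adaptor of the inflammasome, stood at 20.0 and 21.3 RPM in GSCLC_1, 81.5 and 77.5 in GSCLC_2, 0.283 and 0.809 in GSCLC_3, 46.8 and 51.5 in GSCLC_4, and 33.0 to 40.7 RPM in GSC. GSCLC_1 was thus lower than GSCLC_2 (-1.90 ± 0.26, adjusted p = 0.00319) and higher than GSCLC_3 (3.83 ± 0.26, adjusted p = 3.4e-06), and the mean of the other lines hid both differences (0.24 ± 0.21, adjusted p = 0.747). Stra8, induced by retinoic acid before meiosis, was higher than in GSCLC_3, at 17.4 and 16.3 RPM against 5.09 and 2.96 RPM (1.86 ± 0.41, adjusted p = 0.0401). Id1, a relative of Id3, was lower than in GSCLC_3 (-1.40 ± 0.26, adjusted p = 0.0178) and GSCLC_4 (-1.36 ± 0.26, adjusted p = 0.0175), the reverse of Id3 against GSCLC_4.

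Among the genes called between GSCLC_1 and another line, GSCLC_1 was mostly the line nearer to GSC. Of the genes called against GSCLC_2 this held for 73 of 102 (71.6%, and 53.5% of all tested genes), against GSCLC_3 for 109 of 135 (80.7%, and 56.4%) and against GSCLC_4 for 170 of 215 (79.1%, and 57.3%). The GSC libraries did not enter these calls. Part of these genes, such as 40 of the 57 lower than in GSCLC_3, lay in the shifted blocks of chromosomes described below. Those blocks were found by the shift of the other lines from GSC, while GSCLC_1 was near GSC there. The shares outside the blocks are not given, so the shares above do not describe the rest of the genome. Among the 35 genes called against the mean of the other lines, 20 lay nearer to GSC in GSCLC_1 (57.1%, exact 95% binomial interval 39.4% to 73.7%, as a description over genes, which are not replicates), beside 47.5% of all tested genes. Ifi27l1, Selenof, Pomp and Grb10 were among those nearer to GSC, and Sox2, Gsta3, Lgals1 and Mt1 among those farther from it.

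GSCLC_1 had the flattest chromosome medians of the 4 lines. Taken against the GSC mean and centred on the median of each line, the chromosome medians of GSCLC_1 ran from -0.04 to 0.11, a range of 0.15. The range was 0.36 for GSCLC_2, 0.55 for GSCLC_3 and 0.40 for GSCLC_4. In these lines blocks of neighbouring genes were shifted, and on chromosomes 3, 6 and 8 the same blocks in GSCLC_1 had medians near the GSC level. The highest chromosome median of GSCLC_1 was that of the X, at 0.11, beside 0.10, 0.05 and 0.14 in GSCLC_2 to GSCLC_4. Against the mean of the other lines, its medians were -0.17 for chromosome 6 and -0.16 for chromosome 8, and -0.02 to 0.05 for the others.

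**Figure D4:**
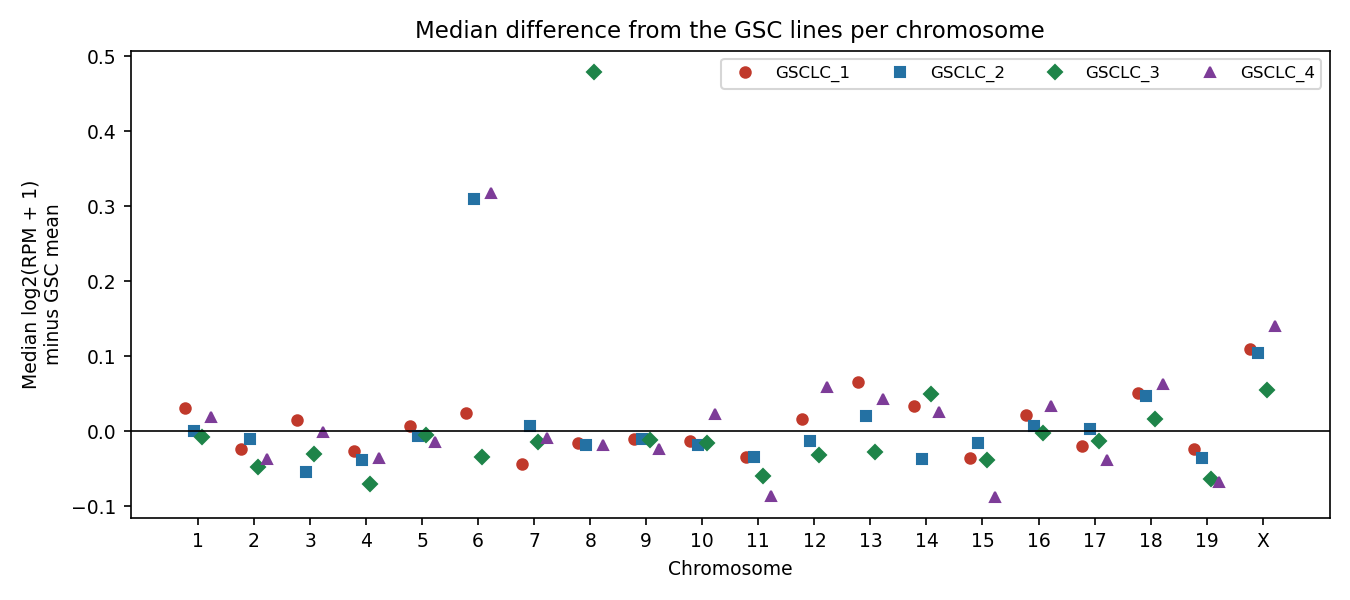
Median over the tested genes of each chromosome (horizontal axis) of the log2(RPM + 1) difference from the GSC mean, centred on the median of each line (vertical axis), for the 4 GSCLC lines. Chromosome 6 stands at 0.31 and 0.32 in GSCLC_2 and GSCLC_4 and chromosome 8 at 0.48 in GSCLC_3, while GSCLC_1 stays within -0.04 and 0.11.

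The blocks were found after seeing the data, as runs of at least 50 genes where the running median over 51 genes passed 0.25, in lines other than GSCLC_1; where the runs of GSCLC_2 and GSCLC_4 differed in length, the shorter is given. On chromosome 3, from 138526191 to 159529955 (GRCm38, 50 tested genes), GSCLC_2 stood at -0.90 and GSCLC_4 at -0.95, or 0.536 and 0.519 of the GSC level. The median was 0.01 in GSCLC_1 (0.04 and -0.06 in its 2 libraries) and 0.03 in GSCLC_3. On chromosome 6, from 83030932 to 149563329 (304 genes), GSCLC_2 stood at 0.47 and GSCLC_4 at 0.49, or 1.384-fold and 1.401-fold, against 0.01 in GSCLC_1 and -0.02 in GSCLC_3. Chromosome 8 as a whole, from 3150922 to 129254339 (615 genes), stood at 0.48 in GSCLC_3 (1.39-fold) and at -0.02 in each other line. Both cultures of each line had the shift. GSCLC_3 had 1 further run, of 52 genes on the X at 0.35, where GSCLC_1 stood at 0.15; a shorter run of GSCLC_1 overlaps its end. DNA copy number was not measured, and its part in these shifts was not tested. No run of that length was found in GSCLC_1. Its longest held 35 genes on the X at 0.36, from 134804142 to 139554584. Shorter runs held 27 genes on chromosome 7 at -0.34, from 141471860 to 144939831, and 16 on the X at 0.26, from 95920045 to 101222583. Of the genes called against the mean of the other lines, 5 higher and 1 lower lay on the X, which holds 466 tested genes. Las1l stands at the start of the run of 16 genes and Tmsb15l within that of 35. The other called genes of the X lie outside both runs. The part of these runs in the calls was not tested.

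**Figure D5:**
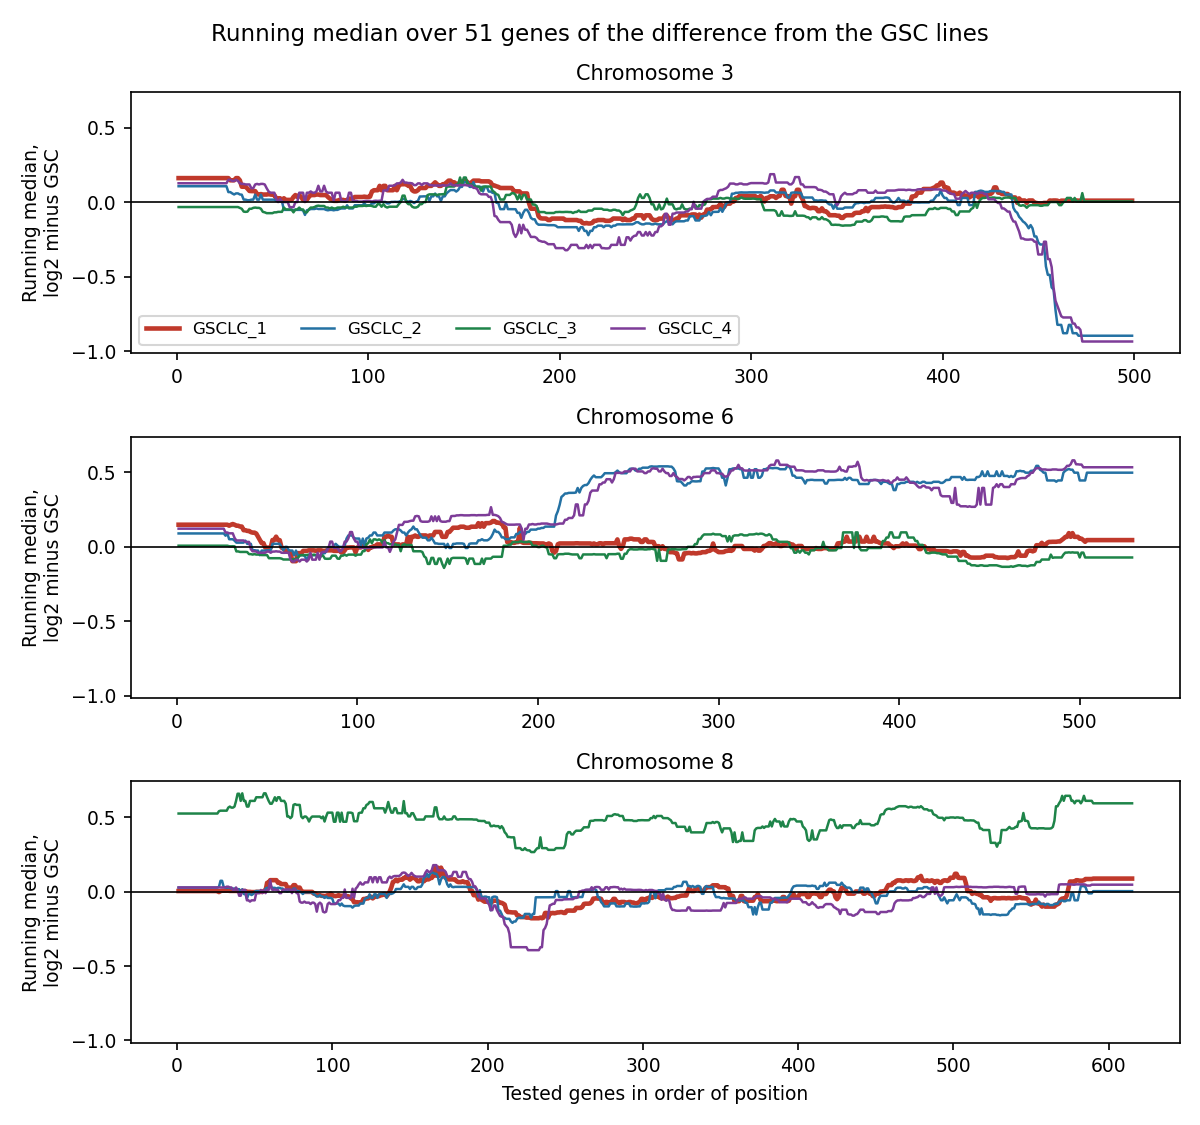
Running median over 51 tested genes of the log2(RPM + 1) difference from the GSC mean, centred per line (vertical axes), along chromosomes 3, 6 and 8 in gene order (horizontal axes), with the ends held at the nearest full window. GSCLC_1 (thick red) stays near 0, while GSCLC_2 and GSCLC_4 fall at the end of chromosome 3 and rise over the later part of chromosome 6, and GSCLC_3 is raised along chromosome 8.

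The blocks hold many of the calls of GSCLC_1. Of the 35 genes, 10 lay in them (28.6%), where 8.46% of the tested genes lie. The blocks were found by shifts in GSCLC_2, GSCLC_3 and GSCLC_4, whose libraries the calls set against GSCLC_1. The higher share therefore follows in part from how the blocks were found and is no separate support. Selenof, a selenoprotein of the endoplasmic reticulum on chromosome 3 at 144570427 to 144597677, stood at 275 and 282 RPM in GSCLC_1, 128 and 125 in GSCLC_2, 235 and 220.5 in GSCLC_3, 116 and 134 in GSCLC_4, and 233 to 248 RPM in GSC. GSCLC_2 and GSCLC_4 were low, GSCLC_3 was near the GSC level and GSCLC_1 was above it (0.86 ± 0.11, adjusted p = 0.00473). The 5 other genes of that block called higher were Gbp1, Znhit6, which assembles small nucleolar RNPs, the splicing factors Zranb2 and Srsf11, and the G protein subunit gene Gng5. Znhit6 stood at 136 and 133 RPM in GSCLC_1 against 58.9 to 74.1 RPM in GSCLC_2 and GSCLC_4 (0.74 ± 0.13, adjusted p = 0.0309), and Srsf11 at 209 and 176 RPM against 84.2 to 110.3 RPM (0.63 ± 0.12, adjusted p = 0.0394). Gng5 stood at 1060.5 and 1026 RPM against 480.3 to 685 RPM (0.53 ± 0.09, adjusted p = 0.0273). Zranb2 stood at 158 and 142 RPM against 80.4 to 98.1 RPM and was called in 7 of 20 settings. Part of the 3′ end of Gng5 (23.7%) also occurs in another transcript. Gbp1 stands beside Gbp2 and Gbp3, which were called against GSCLC_2 (1.25 ± 0.25 and 1.92 ± 0.40) and GSCLC_4 (1.12 ± 0.25 and 1.85 ± 0.40), with no library at 0.

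On chromosome 6 the genes called lower were Egr4, a zinc finger factor of male germ cells, Rpn1, a subunit of oligosaccharyltransferase, and Nagk, an N-acetylglucosamine kinase. Egr4 stood at 238 and 243 RPM in GSCLC_1, 567 and 502 in GSCLC_2, 230.4 and 227 in GSCLC_3, 467 and 369.8 in GSCLC_4, and 229.8 to 296 RPM in GSC. GSCLC_1, GSCLC_3 and GSC overlapped, and GSCLC_2 and GSCLC_4 lay above them (-0.62 ± 0.11, adjusted p = 0.0309). Rpn1 stood at 542 and 572 RPM in GSCLC_1, 866 to 989.5 RPM in GSCLC_2 and GSCLC_4 and 543 to 623 RPM in GSC (-0.51 ± 0.09, adjusted p = 0.0309). Nagk differed from this order in that GSCLC_1 (14.0 and 18.7 RPM) and GSCLC_3 lay below GSC, at 27.1 to 42.6 RPM (-0.97 ± 0.18, adjusted p = 0.0394). Ret, the GDNF receptor kinase, lies in the same block but stood at 221 and 285 RPM in GSCLC_1 and 226 to 288 RPM in the other lines (-0.04 ± 0.12, adjusted p = 0.951). Mt1 was the called gene of chromosome 8, which was shifted in GSCLC_3. Its difference was -0.45 ± 0.13 against GSCLC_3, -0.60 ± 0.13 against GSCLC_2 and -0.63 ± 0.13 against GSCLC_4. The part of the shift in this call was not tested.

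The comparisons with single lines hold the blocks more plainly. Of the genes higher than in GSCLC_2, 16 of 46 (34.8%) lay in the chromosome 3 block, and of those lower 20 of 56 (35.7%) in the chromosome 6 block. Against GSCLC_4 the counts were 17 of 74 (23.0%) and 50 of 141 (35.5%). Of the genes lower than in GSCLC_3, 40 of 57 (70.2%) lay on chromosome 8. The blocks hold 0.437%, 2.65% and 5.37% of the tested genes. Since the blocks were found by the shifts of these same lines, the shares of calls in them follow in part from that choice. An example on chromosome 8 is Gsr, the glutathione reductase, at 80.2 and 83.0 RPM in GSCLC_1 against 159 and 151 in GSCLC_3 (-0.92 ± 0.15, adjusted p = 0.00824). Nrp1, a semaphorin receptor on that chromosome, differed by more, at 2.57 and 8.04 RPM against 38.4 and 18.3 RPM (-2.28 ± 0.46, adjusted p = 0.0299). Without the genes of the 3 blocks, a choice made after seeing the data, 23 of the 35 calls remained (10 of the 35 lay in the blocks), and Ifi27l1 no longer passed against all 3 lines.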

How the data were processed

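RNA of 12 libraries was measured by SC3-seq, per the labels' protocols, from 1 ng of total RNA on the SOLiD system. The values are RPM, deposited by the authors as 1 table of 26219 genes, with no counts. The submitters' processing notes name cutadapt 1.3, TopHat 1.4.1, Cufflinks 2.2.0 and the builds mm10 and GRCm38; their roles, and whether counting used strand, are not stated there or in the labels. Values were taken as log2(RPM + 1) for genes reaching 5 RPM in 2 or more of the 8 GSCLC libraries. limma 3.58.1 in R 4.3.3 was fitted with the line as factor (residual df 4, prior df 10.8, variance trend), with two-sided Benjamini-Hochberg adjusted p under 0.05. A second fit took line means, and pairwise contrasts came from the first. Replicate numbers name cultures; p-values measure the spread between these cultures. The scripts were tested on simulated data.

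Named by rule were called genes whose higher group averaged 20 RPM or more and whose GSCLC_1 libraries both lay outside the range of the other 6 (up to 12 per direction by size), called members of each gene list (up to 4), and a fixed set of germ cell genes. The other called genes, and genes named in single-line comparisons, were chosen after their values were seen. Genes were placed for 11089 (96.8%) from RefSeq, 25 date-like names were restored, and figures were drawn with matplotlib 3.10.9 in Python 3.11.15. Members and lists were chosen with earlier results of these data known. Alternatives were the pseudocount, the filter, the scaling, the variance trend, the libraries in the fit and each library or line left out; added after seeing the data were fits without the shifted blocks and medians without centring.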

Additional observations from a re-analysis of the deposited data

How the results depend on the processing

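Directions of all called genes held in the alternatives run, while calls did not. For the contrast with the other 3 lines, genes higher and lower (19 and 16) were 0 and 0 with no filter on low values (17944 genes, 1643 at an unadjusted p under 0.05) and 1 and 1 with no variance trend in limma (1212 unadjusted). They were 12 and 6 without the line GSCLC_2 and 66 and 151 without GSCLC_3. With all 12 libraries 32 were higher, without GSCLC_4 8 were lower, and without the block genes 12 were higher. Leaving out 1 library gave 0 to 54 higher and 1 to 34 lower. Ifi27l1 alone passed against all 3 lines; the count was 0 with no filter, no trend or no block genes, and 0 to 2 with 1 library left out. The line-level test called 3 genes without GSCLC_2, 57 without GSCLC_3, and 0 to 1 with 1 library left out. The share nearer to GSC was 0% with no trend (2 genes), 77.8% without GSCLC_2 and 0% to 80% with 1 library left out.

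For GSCLC_2, GSCLC_3 and GSCLC_4 in turn, no filter gave 5, 9 and 5 higher and 6, 4 and 3 lower, and no trend gave 7, 23 and 3 higher and 10, 2 and 11 lower. Without block genes the counts were 18 and 20 against GSCLC_2, 13 lower against GSCLC_3, and 30 and 47 against GSCLC_4. Without the line GSCLC_4 they were 75 and 90 against GSCLC_2 and 105 lower against GSCLC_3. Without GSCLC_2 they were 45 and 36 against GSCLC_3 and 41 and 74 against GSCLC_4. Quantile normalisation gave 45 higher than GSCLC_3, and median centring gave 93 lower than GSCLC_3 and 142 higher than GSCLC_4. With 1 library left out the ranges were 4 to 73 and 3 to 90, 9 to 103 and 2 to 101, and 5 to 247 and 4 to 172. The causes were not tested.

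The chromosome 6 median (-0.17) was -0.15 with a pseudocount of 5 RPM, -0.16 with a filter of 20 RPM, -0.15 with centring, and -0.16 or -0.15 with replicate 1 or 2 alone. That of chromosome 8 (-0.16) was -0.15 with 5 RPM or centring and -0.13 with replicate 2 alone.

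Of the germ cell genes that were not called, Ddx4, Zbtb16, Nanos3, Kit, Stra8 and Pou5f1 kept their sign in the alternatives run, and others changed it. With 1 library left out, Dazl ranged from -0.07235 to 0.01414, Gfra1 from -0.1768 to 0.05284, Ret from -0.222 to 0.1449, Etv5 from -0.05087 to 0.1975, Id4 from -0.1007 to 0.4049, Nanos2 from -0.5458 to 0.08209 and Dnmt3b from -0.2376 to 0.00706. Ret was 0.03106 without GSCLC_3, and Dazl 0.023 and Gfra1 0.05412 without GSCLC_4.

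Replicate numbers correlated from -0.09 to 0.11 between lines and do not pair the cultures. With the replicate block 40 genes were called, 34 of them among the 35. Values below 0.646 to 0.99 RPM rest on under 3 reads.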

Other observations

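The 2 cultures of GSCLC_1 differed from each other by over 2-fold in 308 genes, against 338, 612 and 516 for GSCLC_2 to GSCLC_4. Pfkfb3, a regulator of glycolysis, stood at 34.8 RPM in replicate 1 and 3.78 RPM in replicate 2, with 13.3 to 30.2 RPM in the other GSCLC libraries. Slc16a3, a lactate transporter, stood at 34.0 and 11.6 RPM. The calcium-binding gene S100a4 and the smooth muscle actin gene Acta2 had the reverse order, at 7.99 and 33.8 RPM and at 11.4 and 44.7 RPM. The Acta2 level of replicate 2 was above the 4.01 to 17.5 RPM of the other lines. These differences have 1 library on each side and no test.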
